A study of Mus musculus with 11 samples.

Results

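The nuclear genome encodes most subunits of the mitochondrial respiratory chain, and their RNA in the thymus was compared between 3 genotypes: wt, Zmat3-/- and the triple knockout (TKO) Puma-/-p21-/-Zmat3-/-. Members were the protein-coding rows of the count table whose mouse gene symbol begins with Ndufa, Ndufb, Ndufc, Ndufs, Ndufv, Uqcr, Cox4, Cox5, Cox6, Cox7, Cox8 or Atp5, together with Sdha, Sdhb, Sdhc and Sdhd. This rule reads symbols and no measured values, although it was set with earlier results of these data known, and it gave 94 genes out of 54418 in the table and out of 21864 annotated as protein-coding. By symbol they comprised 38 genes of complex I, 4 of complex II, 8 of complex III, 18 of complex IV and 18 of the ATP synthase, with a further 8 complex I assembly factors named Ndufaf. The Zmat3-/- group lacked the RNA-binding protein ZMAT3, and the TKO group lacked in addition PUMA (gene Bbc3), a BH3-only inducer of apoptosis, and p21 (gene Cdkn1a), an inhibitor of cyclin-dependent kinases. All mice were of the C57BL/6-WEHI background and 8 to 12 weeks old, with 4 wt, 4 Zmat3-/- and 3 TKO animals and 1 RNA sample of thymus cells from each. Mice lacking only PUMA and p21 were not analysed here, so that in TKO cells the loss of ZMAT3 and the loss of the other 2 proteins cannot be told apart except against Zmat3-/- mice.

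The respiratory chain sits in the inner mitochondrial membrane. Complex I takes electrons from NADH and complex II takes them from succinate, after which ubiquinone, complex III, cytochrome c and complex IV carry them to oxygen. Complexes I, III and IV pump protons, and the ATP synthase lets the protons return to make ATP. A small set of core subunits of complexes I, III, IV and the ATP synthase is encoded by mitochondrial DNA (mtDNA), whereas complex II is wholly nuclear. Thymocytes rely on both glycolysis and respiration, and their demand differs between proliferating and resting stages.

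The sequencing depth ranged from 17669715 to 80207003 counts per mouse. Levels are given as CPM, the counts of a gene relative to the total of its library after scaling by the trimmed mean of M values (TMM). Of 15 thymocyte marker genes, 15 exceeded 1 CPM in every mouse, as did 9 of 10 B cell, 10 of 14 stromal and epithelial, 7 of 12 myeloid, 5 of 6 erythroid, 1 of 8 adipose and 1 of 8 muscle markers, and summed erythroid marker levels ranged from 881 CPM in wt 2 to 8747 CPM in wt 3. Zmat3 RNA was 10.03, 12.2, 27.4 and 27.9 CPM in wt mice, 5.4 to 6.97 CPM in Zmat3-/- mice and 7.42 to 8.26 CPM in TKO mice, and was therefore below every wt mouse in each knockout mouse but not at 0. Its log2 fold change of -1.64 in Zmat3-/- mice and -1.28 in TKO mice did not pass the edgeR test after adjustment (adjusted p = 0.0789 and 0.371). RNA of the other targeted genes also remained in TKO mice, at 11.8 to 16.0 CPM for Bbc3 and 2.24 to 3.61 CPM for Cdkn1a, against 17.1 to 20.1 and 3.6 to 10.4 CPM in wt mice. The count table cannot show whether such transcripts carried the deleted parts.

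The wt mice stood apart from one another before any comparison of genotypes. Across all genes, correlations of log2 CPM were 0.895 to 0.982 between wt mice, 0.984 to 0.990 between Zmat3-/- mice and 0.971 to 0.983 between TKO mice. Xist, the RNA that coats the inactive X chromosome, was high (513 to 1520 CPM) in 5 mice, namely wt 1, wt 2, TKO 1 and the first and second Zmat3-/- animals, and low (0.726 to 2.64 CPM) in the other 6 mice. The labels did not give the sex of the animals.

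The respiratory chain genes followed this division within the wt group. Their summed level was 13421 CPM in wt 1 and 10471 CPM in wt 2, but 5903 CPM in wt 3 and 5736 CPM in wt 4. In Zmat3-/- mice the sum was 7933, 7689, 7443 and 7074 CPM, and in TKO mice it was 7300.1, 7542 and 6612 CPM. Every knockout mouse thus lay between the high and the low pair of wt mice, and the knockout groups overlapped each other. The members took 0.614% to 1.27% of all counts. The highest wt sum was 2.34 times the lowest, whereas this ratio was 1.12 in Zmat3-/- mice and 1.14 in TKO mice.

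In each complex wt 1 and wt 2 were the highest of the 11 mice, with a different amplitude. All knockout mice lay above wt 3 and wt 4 in every complex, except that TKO 3 (77.9 CPM) lay between them (80.2 and 77.7 CPM) for the assembly factors. The highest over the lowest wt sum was 2.79 for complex IV, 2.52 for complex I, 2.31 for complex III, 2.17 for the ATP synthase, 1.97 for the assembly factors and 1.66 for complex II. The corresponding ratios ranged from 1.06 to 1.18 among Zmat3-/- mice and from 1.03 to 1.26 among TKO mice. For complex I, the sums were 3872, 2920 (wt 1 and 2), 1577 and 1534 CPM (wt 3 and 4), then 2046, 1966, 1949 and 1829 CPM in Zmat3-/- mice and 1905, 1906 and 1610.3 CPM in TKO mice. For complex IV, they were 2550.3, 1864, 948 and 915 CPM in wt mice, 1354, 1310.0, 1292 and 1151 CPM in Zmat3-/- mice and 1187, 1269 and 1010 CPM in TKO mice. Complex II, the only complex without an mtDNA-encoded subunit, had sums of 641, 564, 397 and 387 CPM in wt mice, 452 to 503 CPM in Zmat3-/- mice and 452 to 468 CPM in TKO mice.

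**Figure D1:**
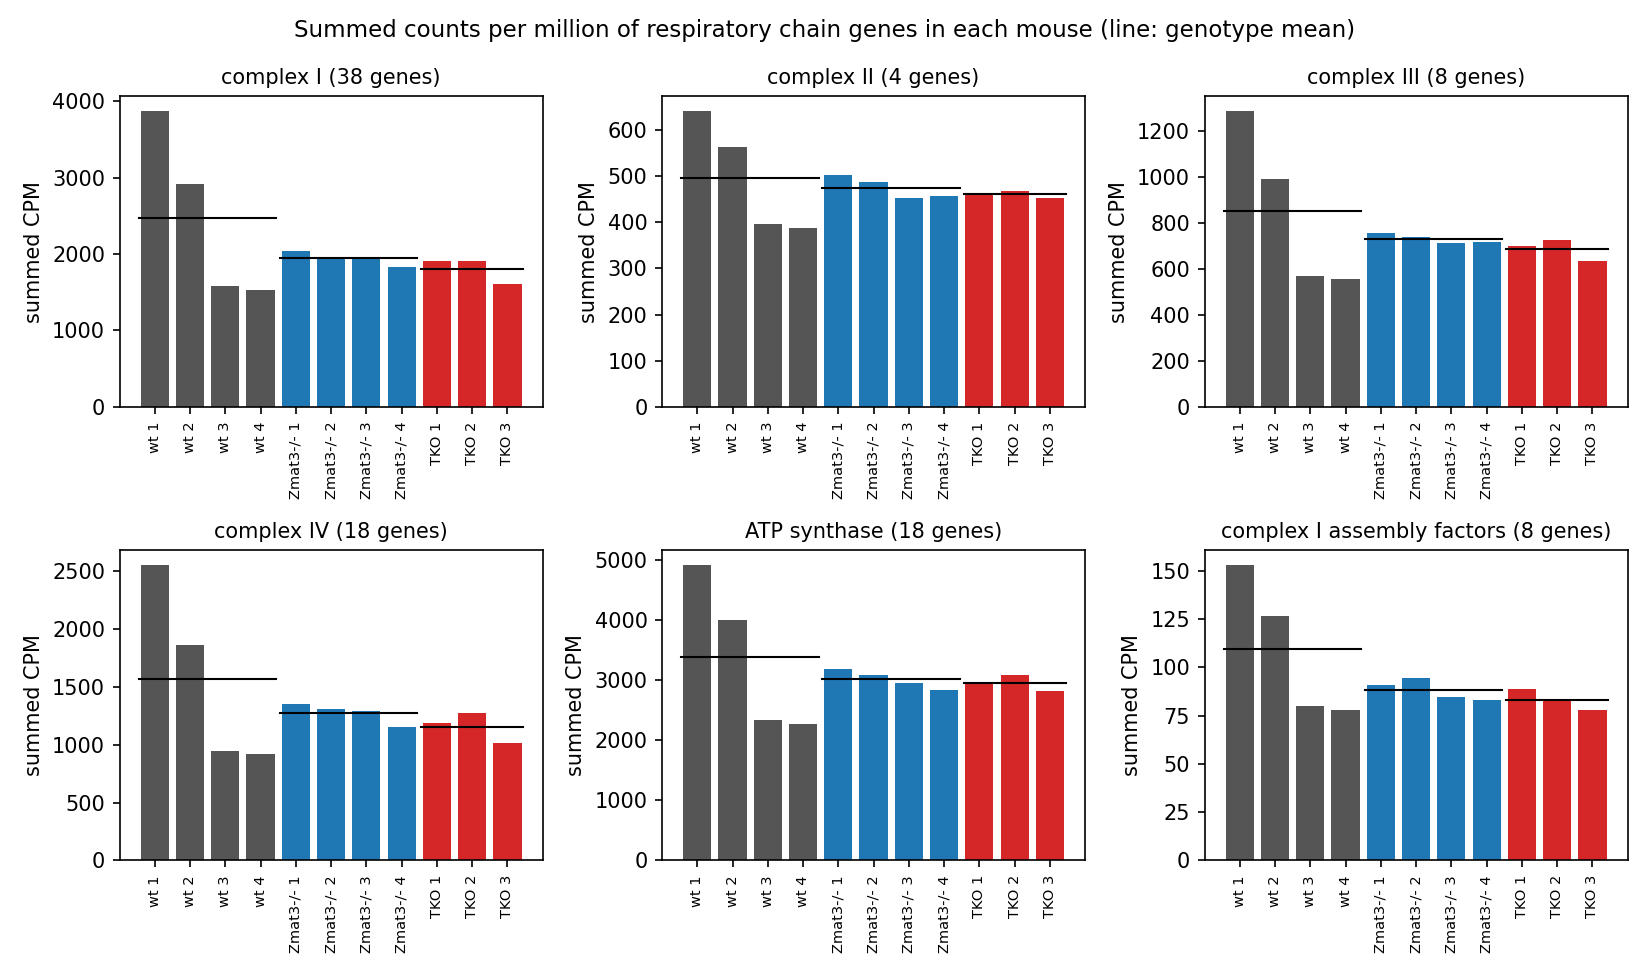
Summed CPM (vertical axis, linear from 0) of the members of each complex in each of the 11 mice, with grey bars for wt, blue for Zmat3-/- and red for TKO and a black line at the genotype mean. In all 6 panels wt 1 and wt 2 are the tallest bars; for complex I the wt bars run from 1534 to 3872 CPM and the knockout bars from 1610.3 to 2046 CPM.

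Of the 94 members, 86 passed the filter on low counts and were tested. The 8 others were a second Atp5o entry with 0 counts and 7 isoforms or relatives of other members at low levels, described with their partners below. Among the 86 tested members, wt 1 had the highest level of all 11 mice for 86, although it was the highest for only 31.4% of all genes. Both wt 1 and wt 2 lay above both wt 3 and wt 4 for 86 of 86 members, against 42.1% of all genes tested. The reverse held for 0 members and 39.8% of all genes. Wt 1 and wt 2 also lay above for 2 of 2 cytochrome c and 15 of 18 tricarboxylic acid cycle genes. So they did for 32 of 42 assembly factors outside the Ndufaf names, 13 of 19 glycolysis genes and 6 of 13 regulators of mitochondrial biogenesis. They lay below for 0, 1, 5, 3 and 4 genes of these lists. The lowest level was in wt 4 for 41 members, in wt 3 for 17 and in TKO 3 for 17. The median SD of log2 CPM across mice was 0.694 for members in wt mice, against 0.37 for all genes. In Zmat3-/- mice it was 0.0989 for members and 0.122 for all genes, and in TKO mice it was 0.144 and 0.167. The wt group was therefore where the members spread most, and by the median more than genes in general. Within the knockout groups their median was the lower one. Even so, 31.4% of members in Zmat3-/- mice and 44.2% in TKO mice exceeded the median of all genes, which were not matched for level.

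No member differed significantly between genotypes. In TKO against wt mice, edgeR called 0 of 86 members at an adjusted p below 0.05, against 0.294% of all 13275 genes tested, and 1 member had an unadjusted p below 0.05, against 10.3% of all genes. Between Zmat3-/- and wt mice, it called 0 of 86, against 0.764% of all 13480 genes, and 2 members had an unadjusted p below 0.05, against 16.1% of all genes. In TKO against Zmat3-/- mice, it called 0 of 86, against 0.221% of all 13132 genes, and 3 members had an unadjusted p below 0.05, against 4.5% of all genes. DESeq2 also called 0 members in each comparison, while calling 2.88%, 8.03% and 0.548% of all genes.

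The fitted log2 fold changes of the members were nonetheless mostly negative. In TKO against wt mice, 84 of 86 were negative, with a median of -0.44 and a median standard error of 0.357, against a median of -0.038 over all genes, of which 54.3% were negative. In Zmat3-/- against wt mice, 80 of 86 were negative, with a median of -0.32 and a median standard error of 0.301, against -0.026 over all genes. In TKO against Zmat3-/- mice, 78 of 86 were negative, with a median of -0.10 and a median standard error of 0.0965, against -0.0082 over all genes. The first and second comparisons share their wt mice, and members are not independent of one another, so that the counts of negative values carry no test. Each of these medians moved towards 0 but stayed negative when a single mouse was left out. Without wt 1 the median became -0.15 in TKO mice (68 of 86 negative) and -0.027 in Zmat3-/- mice (49 of 86 negative), and without TKO 3 the median between the knockouts became -0.022 (55 of 86 negative).

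Few members separated the groups completely. All 3 TKO mice lay below all 4 wt mice for 1 of 86 members (Cox6b2), against 7.45% of all genes. All Zmat3-/- mice lay below all wt mice for 2 of 86 members (Ndufa3 and Ndufaf1), against 7.2% of all genes. All TKO mice lay below all Zmat3-/- mice for 6 of 86 members, Ndufaf8 and Uqcrc2 among them, against 2.7% of all genes. For 0 members did the first-named group lie wholly above the second in any of the 3 comparisons. Of all genes, 6.46%, 7.03% and 2.94% did so in the same order of comparisons. Cox6b2 had been picked as an isoform partner and Ndufaf1 for its level, and their separation is named after their values were seen.

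**Figure D2:**
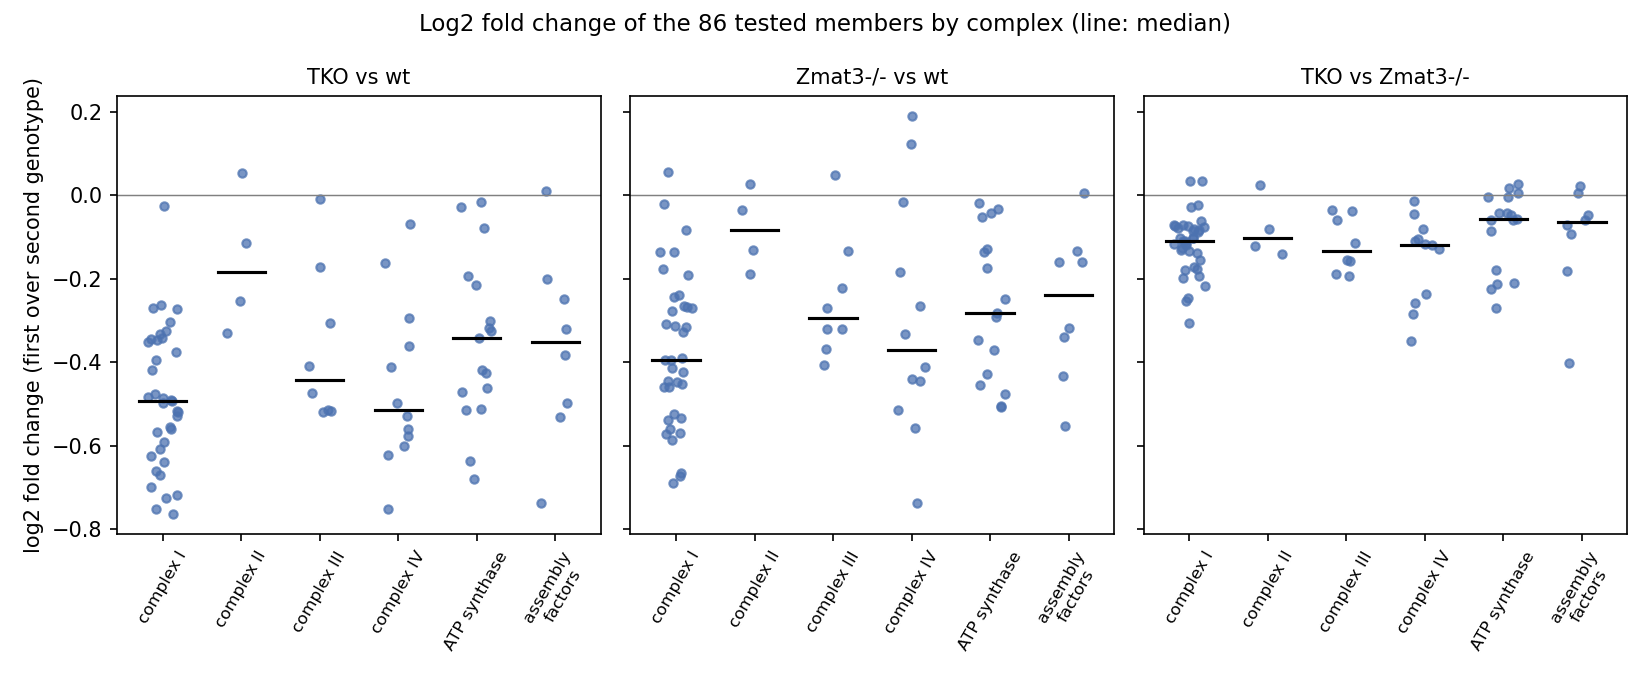
Log2 fold change (vertical axis) of the 86 tested members, 1 point each, grouped by complex in 3 panels for the comparisons TKO against wt, Zmat3-/- against wt and TKO against Zmat3-/-, with a line at each median. The points lie mainly below 0 in all panels, with complex medians from -0.51 to -0.18 in the first panel and from -0.13 to -0.057 in the third, and none passed the adjusted test.

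Complex I showed median log2 fold changes of -0.49 in TKO against wt mice, -0.39 in Zmat3-/- against wt mice and -0.11 between the knockouts, over 37 tested members. Scaled to the length of its exons, the most abundant complex I gene was Ndufb11 (109 CPM per kb over the 11 mice), followed by Ndufa2 (93.2 CPM per kb) and Ndufa4 (75.9 CPM per kb), a subunit named for complex I but since assigned to complex IV. Ndufb11 and Ndufa2 encode accessory subunits. Ndufa3, another accessory subunit of the membrane arm (chromosome 7, 3617373 to 3620327), had the lowest fold change against wt in both knockouts. Its level was 82.8, 58.6, 40.6 and 34.9 CPM in wt mice, 34.6, 33.7, 32.2 and 33.1 CPM in Zmat3-/- mice and 35.8, 32.1 and 27.8 CPM in TKO mice. The Zmat3-/- mice lay below every wt mouse, although only narrowly below wt 4, and TKO 1 lay above wt 4. The log2 fold change of Ndufa3 was -0.69 ± 0.246 (SE) in Zmat3-/- mice (edgeR adjusted p = 0.226) and -0.76 ± 0.3 in TKO mice (adjusted p = 0.446).

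Ndufs1, the large iron-sulphur subunit of the electron input arm (chromosome 1, 63143596 to 63176833), had the smallest SD of log2 CPM among wt mice in complex I (0.107). It was at 98.8, 98.0, 86.2 and 86.8 CPM in wt mice, 93.2 to 97.0 CPM in Zmat3-/- mice and 96.4, 85.2 and 90.7 CPM in TKO mice. Its log2 fold change was -0.025 ± 0.118 in TKO mice and 0.055 ± 0.0835 in Zmat3-/- mice, and its longest coding transcript, of 2661 bp, was long for a member. Between the knockouts, Ndufa2 had the lowest complex I value (log2 fold change -0.31 ± 0.142, edgeR adjusted p = 0.982) and Ndufa8 the highest (0.034 ± 0.0716). Ndufa2 was at 54.3, 52.3, 53.0 and 45.5 CPM in Zmat3-/- mice and at 44.3, 50.03 and 31.6 CPM in TKO mice, so that the groups overlapped and TKO 3 was the lowest.

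The assembly factors help to build complex I without remaining in it. The 3 most abundant per kb were Ndufaf8 (13.1 CPM per kb), Ndufaf3 (11.5 CPM per kb) and Ndufaf1 (9.0 CPM per kb). Ndufaf8 was at 23.2, 16.9, 7.89 and 5.56 CPM in wt mice, 11.2, 11.1, 10.1 and 9.75 CPM in Zmat3-/- mice and 8.46, 9.0 and 6.74 CPM in TKO mice. The TKO mice lay below all Zmat3-/- mice, and both knockouts lay within the range of the wt mice. Its log2 fold change between the knockouts was -0.40 ± 0.14 (edgeR adjusted p = 0.982), and against wt it was -0.74 ± 0.476 in TKO mice. Ndufaf3 had the lowest value of the group in Zmat3-/- against wt mice (-0.55 ± 0.263, adjusted p = 0.347), and Ndufaf6 the highest in both comparisons with wt (0.011 ± 0.411 in TKO mice and 0.0044 ± 0.335 in Zmat3-/- mice).

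The 4 subunits of succinate dehydrogenase (complex II) had the smallest median difference from wt, -0.18 in TKO mice and -0.083 in Zmat3-/- mice. Sdha, the flavoprotein that oxidises succinate, was at 238, 220.2, 198 and 186 CPM in wt mice, 200 to 222 CPM in Zmat3-/- mice and 212 to 226 CPM in TKO mice. Its log2 fold change was 0.053 ± 0.134 in TKO mice and 0.027 ± 0.105 in Zmat3-/- mice, the highest of the complex in both. Sdhb, which carries the iron-sulphur clusters, was at 163, 146, 76.6 and 75.8 CPM in wt mice, 97.8 to 113 CPM in Zmat3-/- mice and 89.1 to 101 CPM in TKO mice. Sdha thus varied less between the wt pairs than Sdhb. Of the membrane anchors, Sdhc was at 126, 105, 63.0 and 61.3 CPM in wt mice and 66.8 to 82.2 CPM in the knockouts, with the lowest log2 fold changes of the complex (-0.33 ± 0.271 in TKO mice and -0.19 ± 0.229 in Zmat3-/- mice), and Sdhd was at 59.0 to 114 CPM in wt mice and 70.7 to 86.2 CPM in the knockouts. Per kb, Sdhd was the most abundant (64.6 CPM per kb), then Sdha (51.8) and Sdhb (47.6).

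In complex III, the median log2 fold change was -0.44 in TKO against wt mice, -0.29 in Zmat3-/- against wt mice and -0.13 between the knockouts. The most abundant genes per kb were Uqcrh (133 CPM per kb), the hinge protein that supports cytochrome c1, Uqcr10 (77.9) and Uqcrfs1 (75.7), the Rieske iron-sulphur protein. Uqcrc2, a core protein of the matrix side, was at 197, 187, 145 and 142 CPM in wt mice, 170 to 178 CPM in Zmat3-/- mice and 164 to 168 CPM in TKO mice. It had the highest value of the complex against wt, -0.01 ± 0.159 in TKO mice and 0.048 ± 0.127 in Zmat3-/- mice, and the TKO mice all lay below the Zmat3-/- mice by a small margin (log2 fold change -0.058 ± 0.0566, edgeR adjusted p = 0.982). The lowest values were those of Uqcr11 in TKO against wt mice (-0.52 ± 0.395), Uqcr10 in Zmat3-/- against wt mice (-0.41 ± 0.355) and Uqcrh between the knockouts (-0.19 ± 0.111).

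Complex IV had the lowest median of all complexes in TKO against wt mice (-0.51), with -0.37 in Zmat3-/- against wt mice and -0.12 between the knockouts, over 12 tested members. Cox6a1, the widely expressed form of subunit VIa, had the highest level per kb (173 CPM per kb), followed by Cox8a (163) and Cox7a2l (158), a factor in the joining of complexes III and IV. Cox6a1 was at 285, 185, 90.6 and 92.4 CPM in wt mice, 103, 109, 87.8 and 89.4 CPM in Zmat3-/- mice and 92.6, 105 and 93.5 CPM in TKO mice. The knockout mice lay close to wt 3 and wt 4 and far below wt 1 and wt 2. The log2 fold change of Cox6a1 was -0.75 ± 0.408 in TKO mice (edgeR adjusted p = 0.556) and -0.74 ± 0.352 in Zmat3-/- mice (adjusted p = 0.349), the lowest of the complex in both, and -0.014 ± 0.0891 between the knockouts.

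Cox7b had the highest fold change of complex IV in each knockout against wt. It was at 116, 106, 49.0 and 47.1 CPM in wt mice, 97.8, 83.5, 96.2 and 83.5 CPM in Zmat3-/- mice and 87.1, 85.4 and 55.7 CPM in TKO mice. Its log2 fold change of 0.19 ± 0.301 in Zmat3-/- mice and -0.068 ± 0.37 in TKO mice was followed by that of Cox6c (0.12 and -0.16), a gene chosen after its values were seen, and the difference of Cox7b from other members was not tested. Cox7b is 1 of the 3 members on the X chromosome, with Ndufa1 and Ndufb11. Cox7a2 had the lowest complex IV value between the knockouts (-0.35 ± 0.164, edgeR adjusted p = 0.982), with 90.5, 82.5, 91.9 and 69.5 CPM in Zmat3-/- mice and 72.7, 78.5 and 47.7 CPM in TKO mice.

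Thymocytes expressed the widely distributed isoform of each paired complex IV subunit. Cox4i1 was at 146 to 446 CPM over the 11 mice, while Cox4i2, the isoform known from lung, was at 0 to 0.494 CPM. Cox6a2 and Cox7a1, known from heart and skeletal muscle, were at 0.253 to 1.33 and 0.36 to 1.98 CPM, against 87.8 to 285 CPM for Cox6a1 and 47.7 to 142 CPM for Cox7a2. Cox8b, also a muscle isoform, was at 0.0121 to 1.4 CPM and Cox8a at 73.5 to 190 CPM. Cox7b2 and Cox8c were listed with 0 counts in every mouse, where 3 counts would be 0.0374 CPM in the deepest library and 0.17 CPM in the shallowest, and such limits cover counting error only. Ndufa4l2, a relative of Ndufa4 induced by low oxygen, had 31 counts in all. Cox6b2, the testis form of subunit VIb, was the exception that passed the filter. It was at 9.91, 5.05, 4.88 and 4.52 CPM in wt mice, 3.9 to 4.86 CPM in Zmat3-/- mice and 3.71, 3.86 and 4.28 CPM in TKO mice, below every wt mouse in TKO mice, with a log2 fold change of -0.62 ± 0.322 (edgeR adjusted p = 0.543).

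The ATP synthase genes had the highest summed level of any complex (2267 to 4919 CPM in wt mice). Atp5a1 (218 CPM per kb) and Atp5b (189 CPM per kb), which form the catalytic head, and Atp5h (131 CPM per kb), of the peripheral stalk, were the most abundant. Atp5b was at 1060 and 977 CPM in wt 1 and wt 2, 616 and 612 CPM in wt 3 and wt 4, 746 to 832 CPM in Zmat3-/- mice and 788 to 818 CPM in TKO mice. Its log2 fold change was the highest of the complex in TKO against wt mice (-0.016 ± 0.242) and between the knockouts (0.027 ± 0.0743). Atp5c1, the central stalk subunit, was the highest in Zmat3-/- against wt mice (-0.019 ± 0.195). The lowest values were those of small membrane subunits, Atp5k in TKO against wt mice (-0.68 ± 0.385, edgeR adjusted p = 0.575), Atp5g1 in Zmat3-/- against wt mice (-0.51 ± 0.329, adjusted p = 0.48) and Atp5j2 between the knockouts (-0.27 ± 0.174, adjusted p = 0.982).

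The identical c-subunit of the ATP synthase ring is encoded by Atp5g1, Atp5g2 and Atp5g3. Atp5g3 was the most abundant (129 to 332 CPM over the 11 mice), before Atp5g1 (33.5 to 96.8 CPM) and Atp5g2 (5.96 to 16.1 CPM). The value of Atp5g2 is uncertain, since 37.5% of its 31-base words also occur in the transcribed pseudogene Gm10175, which was given 76.5 to 247 CPM. The sum of both was 263, 186, 91.4 and 83.7 CPM in wt mice, 110 to 130 CPM in Zmat3-/- mice and 105 to 116 CPM in TKO mice. Ndufb4 of complex I is uncertain in the same way, with 9.92 to 24.7 CPM against 14.0 to 42.7 CPM for its pseudogene Ndufb4c. The sums kept the high and low pairs of wt mice.

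The direction of the members depended on which wt mice were kept: it turned without wt 1 and wt 2, and held with larger differences without wt 3 and wt 4. Without wt 1 and wt 2, the median log2 fold change over members was 0.24 in TKO mice and 0.34 in Zmat3-/- mice. Then 5 of 86 members were called higher in TKO mice (2.96% of all genes were) and 61 of 86 in Zmat3-/- mice (16.9% of all genes). Without wt 3 and wt 4, the medians were -0.87 and -0.79. Then 77 of 87 tested members were called lower in TKO mice (21.7% of all genes were) and 80 of 88 in Zmat3-/- mice (28.7% of all genes). These pairs were formed after the values had been seen, so that the sign of the result follows from which wt mice remain, and the counts are a description.

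**Figure D3:**
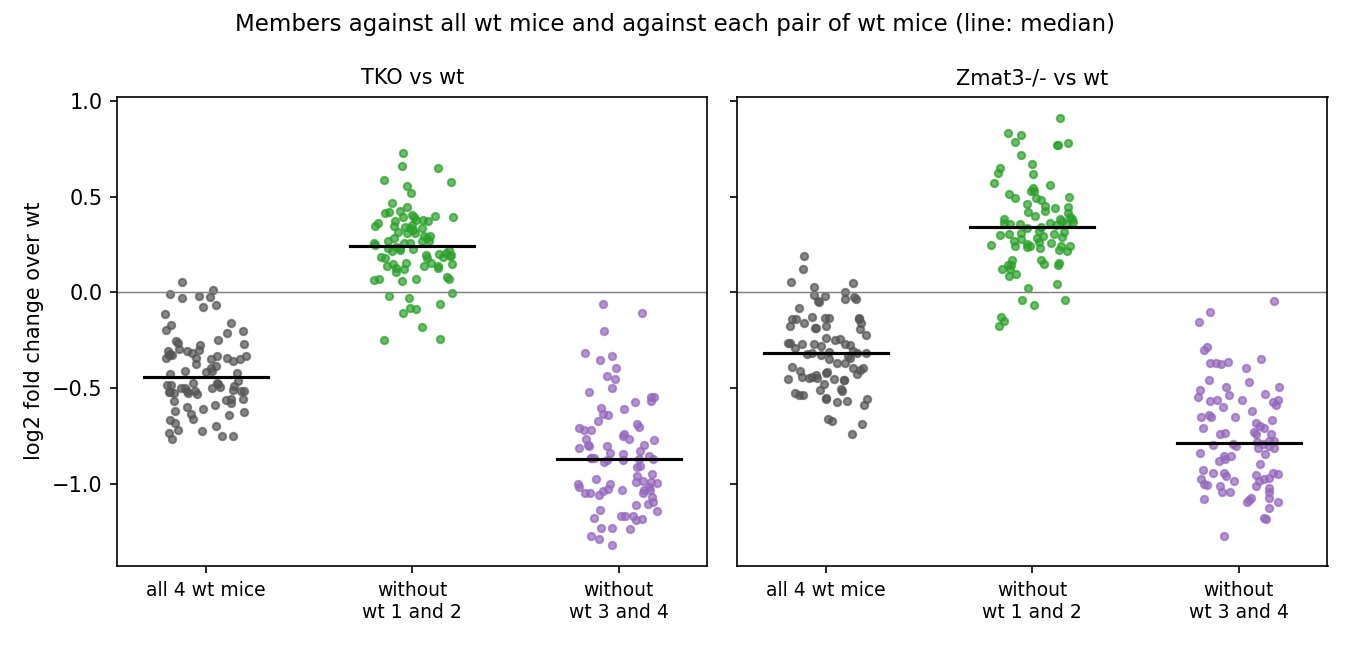
Log2 fold change over wt (vertical axis) of each tested member in TKO (left) and Zmat3-/- mice (right), fitted with all 4 wt mice, without wt 1 and wt 2, and without wt 3 and wt 4, with a line at the median. The medians in TKO mice are -0.44, 0.24 and -0.87, and in Zmat3-/- mice -0.32, 0.34 and -0.79.

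Without wt 1 and wt 2, the 5 members called in TKO mice were 3 of the ATP synthase, 1 of complex I and 1 of complex III. In Zmat3-/- mice the calls covered 14 of 17 ATP synthase, 25 of 37 complex I, 2 of 8 assembly factor, 3 of 4 complex II, 8 of 8 complex III and 9 of 12 complex IV genes. The highest log2 fold change was then 0.91 ± 0.0851 for Cox7b. This is a description only, since the wt mice left out were those with the higher levels of the members. Without wt 3 and wt 4, complex I had 36 of 37 genes called lower in each knockout, and complex II 3 of 4.

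Xist level divided the wt mice in the same way, and the difference between knockout and wt was compared within each Xist class by an interaction term in edgeR, added after the data were seen. In Zmat3-/- against wt mice, the interaction was called for 78 of 86 members, against 44.2% of all genes, with a median log2 fold change of 0.28 among mice with low Xist and -0.70 among mice with high Xist. In TKO against wt mice it was called for 54 of 86 members, against 23.1% of all genes, with medians of 0.21 and -0.83. Only TKO 1 had high Xist among TKO mice, so that the second of these medians and the TKO interaction rest on that 1 mouse, assumed to vary like the others. Between the knockouts it was called for 0 of 86 members and 0 of all genes, with medians of -0.10 and -0.085. The Zmat3-/- mice with high Xist had sums of 7933 and 7689 CPM and those with low Xist 7443 and 7074 CPM, so that the large division of the members was seen in wt mice only. With 2 wt mice in each class, Xist class and the other properties of those libraries cannot be told apart. The wt classes were also the pairs already seen to differ for all tested members. The interaction counts against wt therefore describe that division again and are not a separate result.

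Other gene groups of the same libraries were examined to place this division. Summed cytosolic ribosomal protein gene levels were 89986, 66646, 29415 and 29092 CPM in wt mice, 41938 to 47955 CPM in Zmat3-/- mice and 35710.5 to 46067 CPM in TKO mice, so that every knockout mouse again lay between the high and the low pair of wt mice. The sum of the mtDNA-encoded subunits was 54160.5, 59233, 40770.1 and 38428 CPM in wt mice, 103721, 61660, 156887 and 123059 CPM in Zmat3-/- mice and 81415, 91726 and 35650.3 CPM in TKO mice. The lowest Zmat3-/- sum exceeded the highest wt sum, and TKO 3 was the lowest mouse of all. The summed level was thus higher in wt 1 and wt 2, as for the members, but single mtDNA-encoded genes went both ways, with both mice above wt 3 and wt 4 for 8 of 13 and below them for 4 of 13.

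Markers of other cell types and rRNA also differed between the wt pairs. The summed level of 6 erythroid markers was 1096 and 881 CPM in wt 1 and wt 2 and 8747 and 2260 CPM in wt 3 and wt 4, with 1165 to 5786 CPM in Zmat3-/- mice and 2743 to 3756 CPM in TKO mice, and 5 of the 6 exceeded 1 CPM in every mouse. The 14 markers of stroma and epithelium summed to 279 and 261 CPM in wt 1 and wt 2, 174 and 193 CPM in wt 3 and wt 4, 218 to 238 CPM in Zmat3-/- mice and 179 to 231 CPM in TKO mice. The sum of 10 B cell markers was 113 and 146 CPM against 72.9 and 91.2 CPM in these wt pairs, and that of 12 myeloid markers 214 and 263 CPM against 167 and 154 CPM. Thymocyte markers summed to 17730 and 18320.0 CPM in wt 1 and wt 2 and 21101 and 20114 CPM in wt 3 and wt 4. Single markers did not all follow these sums. Both wt 1 and wt 2 lay above wt 3 and wt 4 for 4 of 10 B cell, 8 of 12 myeloid, 6 of 14 stromal and 8 of 15 thymocyte markers, and below them for 5 of 6 erythroid, 1 B cell, 1 myeloid, 1 stromal and 5 thymocyte markers. In these lists 0 genes were at 0 in every mouse. The rRNA genes summed to 10544 and 5810 CPM in wt 1 and wt 2 and 17861 and 19287 CPM in wt 3 and wt 4, and the glycolysis genes to 5514 and 4603 CPM and 2879 and 2869 CPM. The part of any of these in the result was not tested.

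**Figure D4:**
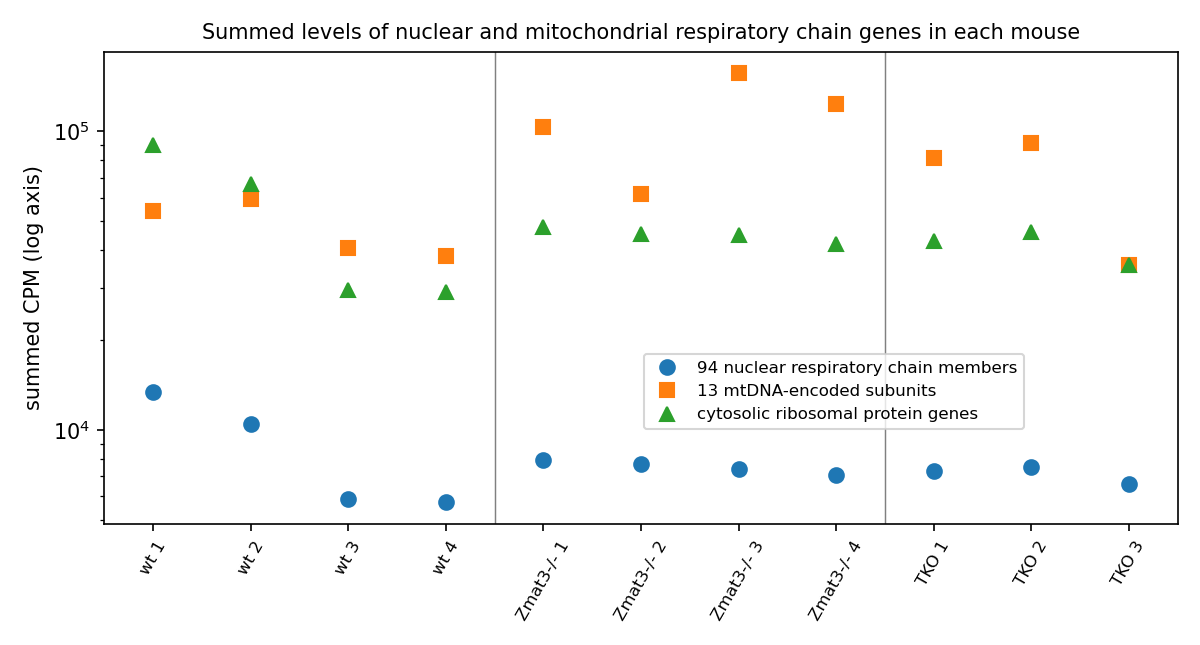
Summed CPM (vertical log axis) in each of the 11 mice for the 94 nuclear respiratory chain members (circles), the 13 mtDNA-encoded subunits (squares) and the cytosolic ribosomal protein genes (triangles), with lines between genotypes. Circles and triangles are high in wt 1 and wt 2 and low in wt 3 and wt 4, whereas the squares are highest in Zmat3-/- mouse 3 (156887 CPM).

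Of the mtDNA-encoded genes, 12 of 13 in Zmat3-/- against wt mice had a positive log2 fold change, with a median of 1.28, and 1 was called. This was mt-Nd4l, a complex I subunit (log2 fold change 2.27 ± 0.325, edgeR adjusted p = 0.0247). The call was lost without any one of wt 2, wt 3, wt 4 and Zmat3-/- mice 1, 3 and 4 (adjusted p = 0.0593 to 0.0973, log2 fold change 2.09 to 2.38). mt-Co2, of complex IV, had the only negative value (-0.62 ± 0.272, adjusted p = 0.31). In TKO against wt mice, 9 of 13 were positive, with a median of 0.48, from 1.498 ± 0.406 for mt-Nd4l to -1.06 ± 0.377 for mt-Co2, and 0 were called. Between the knockouts all 13 were negative, with a median of -0.77, from -0.44 ± 0.354 for mt-Co2 to -0.84 ± 0.357 for mt-Atp8, and 0 were called. Without TKO 3 this median was -0.38, and the median in TKO against wt mice was 0.81, while it was 0.21 without TKO 2.

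The remaining lists had 0 genes called by edgeR in any comparison. Of the 2 cytochrome c genes, the carriers between complexes III and IV, both had negative values in each comparison, with medians of -0.17, -0.14 and -0.029 in TKO against wt, Zmat3-/- against wt and TKO against Zmat3-/- mice. Of 41 tested assembly factors outside the Ndufaf names, 37, 33 and 34 were negative in these comparisons, with medians of -0.34, -0.25 and -0.082. Of 12 tested regulators of mitochondrial biogenesis, 6, 5 and 5 were negative, with medians of -0.0089, 0.031 and 0.038. The 18 genes of the tricarboxylic acid cycle had medians of -0.077, -0.024 and -0.032, and those of glycolysis -0.12, -0.11 and 0.0056.

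The members are short genes, and the wt libraries differed by transcript length. The longest coding transcript had a median length of 936.5 bp over tested members and 3122 bp over all coding genes tested. Each mouse was described by Spearman's rho, across 11911 coding genes, between transcript length and the gene's log2 CPM relative to the mean of the 11 mice. This rho was -0.706 in wt 1 and -0.686 in wt 2, 0.411 in wt 3 and 0.447 in wt 4, 0.075 to 0.373 in Zmat3-/- mice and 0.19 to 0.491 in TKO mice. Short transcripts were thus relatively high in wt 1 and wt 2 only. Among the 86 members, the SD of log2 CPM between wt mice had a rho of -0.535 with transcript length and of -0.086 with the mean level. Genes are not independent replicates, and all values of a mouse come from 1 library.

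Sample offsets that followed transcript length were therefore added to the edgeR fit after the data were seen. The median log2 fold change over members was then -0.12 in TKO against wt mice (63 of 86 negative), -0.13 in Zmat3-/- against wt mice (62 of 86 negative) and -0.00057 between the knockouts (43 of 86 negative). With offsets for length and GC content, the medians were -0.13, -0.13 and 0.003.

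**Figure D5:**
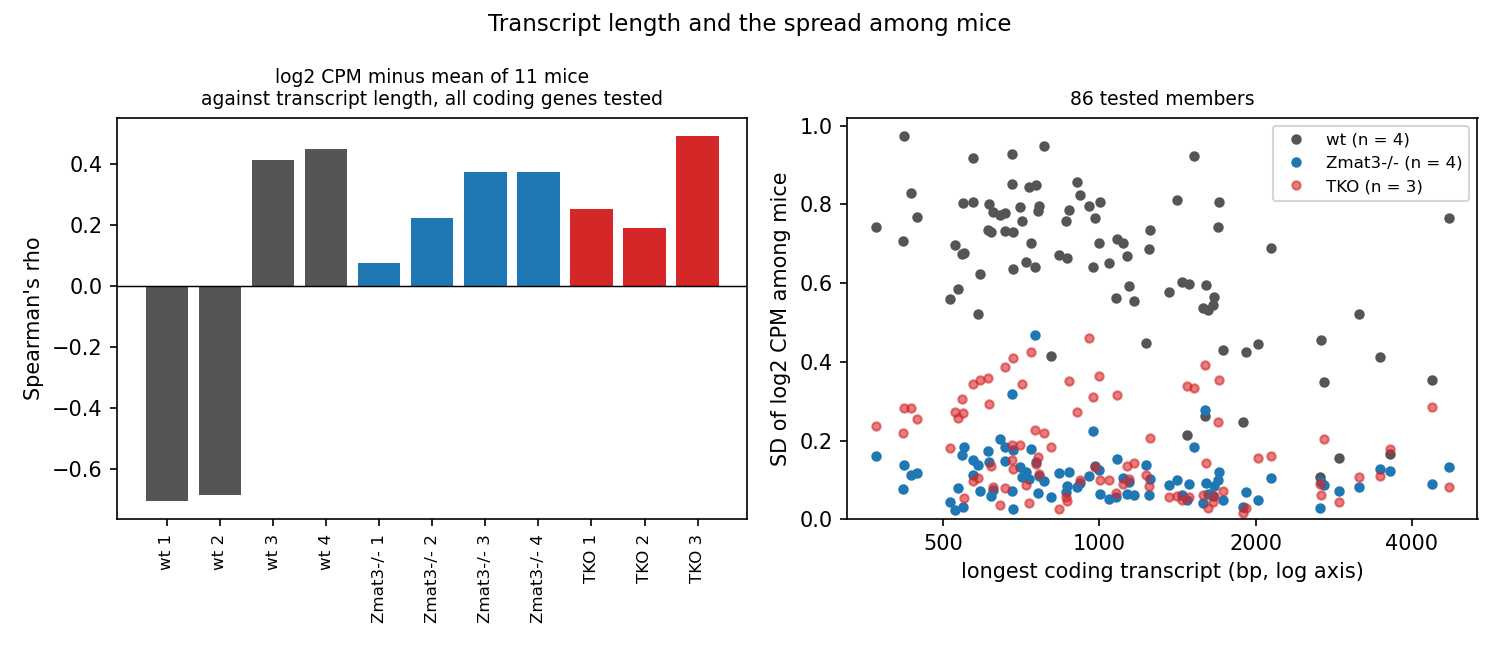
Left, Spearman's rho between transcript length and relative log2 CPM across 11911 coding genes in each mouse (bars; grey wt, blue Zmat3-/-, red TKO). Right, SD of log2 CPM among the mice of each genotype (vertical axis) against the longest coding transcript in bp (log axis) for the 86 tested members. The bars of wt 1 and wt 2 are negative (-0.706 and -0.686) and all others positive, and the wt points, with a median SD of 0.694, lie above those of the knockouts and decline with length.

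The promoters of the members were also examined for sequences that nuclear respiratory factors are known to bind. RefSeq promoters on GRCm38.p6, from 250 bases before to 50 bases after the transcription start, were found for 74 member symbols (79 promoters). The searched letters were GCATGCGC for NRF1, CCGGAAG for the ETS family, which includes GABP (NRF2), and AAGATGGC for YY1, each on both strands. The NRF1 letters occurred in 15.2% of member promoters, against 2.71% of 32851 promoters and 3.51% of those of protein-coding genes. The ETS letters occurred in 22.8%, against 8.86% and 11.6%, and the YY1 letters in 12.7%, against 2.75% and 3.05%. Any of them occurred in 41.8% of member promoters, against 13.3% and 16.7%. Matches are descriptions of letters, and no binding was measured.

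For each of the 5 complexes, 1 promoter that no other of its complex exceeded in matches is shown, to let the sites be seen in their context. Where promoters tied (Ndufa11 with Ndufs3, Uqcr11 with Uqcrc1, Atp5k with Atp5l), the gene with the higher total count was taken. Capitals mark the matched letters in either orientation, and overlapping matches run together.
Ndufs3 (chr2:90904672-90904971, minus strand): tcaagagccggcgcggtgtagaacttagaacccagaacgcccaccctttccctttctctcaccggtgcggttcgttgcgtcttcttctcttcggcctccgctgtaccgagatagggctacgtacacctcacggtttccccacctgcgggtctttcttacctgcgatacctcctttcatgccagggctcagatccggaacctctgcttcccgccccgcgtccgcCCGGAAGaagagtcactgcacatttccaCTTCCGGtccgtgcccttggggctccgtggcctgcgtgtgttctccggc
Sdhb (chr4:140961021-140961320, plus strand): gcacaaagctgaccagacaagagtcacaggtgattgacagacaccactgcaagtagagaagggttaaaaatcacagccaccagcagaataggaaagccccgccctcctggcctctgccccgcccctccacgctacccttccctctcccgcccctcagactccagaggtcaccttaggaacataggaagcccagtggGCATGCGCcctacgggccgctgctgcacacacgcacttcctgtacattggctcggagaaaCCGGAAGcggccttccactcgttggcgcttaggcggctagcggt
Uqcrc1 (chr9:108936398-108936697, plus strand): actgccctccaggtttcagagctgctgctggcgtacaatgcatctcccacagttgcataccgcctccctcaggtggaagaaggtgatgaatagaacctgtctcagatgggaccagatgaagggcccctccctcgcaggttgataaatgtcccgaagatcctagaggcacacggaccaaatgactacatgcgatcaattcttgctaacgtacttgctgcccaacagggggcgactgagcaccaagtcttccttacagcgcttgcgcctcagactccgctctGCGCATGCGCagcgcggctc
Cox6a1 (chr5:115348909-115349208, minus strand): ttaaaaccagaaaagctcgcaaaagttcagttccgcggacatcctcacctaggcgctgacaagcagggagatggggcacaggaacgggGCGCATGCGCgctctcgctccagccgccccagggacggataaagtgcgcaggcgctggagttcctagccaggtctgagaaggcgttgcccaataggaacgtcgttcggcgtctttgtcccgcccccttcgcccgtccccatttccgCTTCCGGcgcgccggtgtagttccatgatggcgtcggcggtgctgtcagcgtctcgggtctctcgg
Atp5l (chr9:44920693-44920992, minus strand): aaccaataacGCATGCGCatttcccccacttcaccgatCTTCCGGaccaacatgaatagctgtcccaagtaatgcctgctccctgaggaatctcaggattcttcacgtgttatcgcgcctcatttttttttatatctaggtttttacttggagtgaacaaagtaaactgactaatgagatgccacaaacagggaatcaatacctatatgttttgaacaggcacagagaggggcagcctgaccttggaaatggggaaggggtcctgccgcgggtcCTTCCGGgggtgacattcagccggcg
Ndufs3 encodes a core subunit of the electron input arm of complex I, and its window held 2 ETS matches around the start site. Sdhb held 1 NRF1 and 1 ETS match. Uqcrc1, a core protein of complex III, held 2 overlapping NRF1 matches, which are the same stretch read on each strand. Cox6a1, the gene with the lowest complex IV fold changes against wt, held 2 overlapping NRF1 matches and 1 ETS match. Its NRF1 matches were again the same stretch read on each strand. Atp5l, a small membrane subunit of the ATP synthase, held 1 NRF1 and 2 ETS matches. Since all 86 tested members had wt 1 and wt 2 above wt 3 and wt 4, that order cannot separate members with a match from those without. Of the genes shown, Ndufs3 was at 108, 76.4, 45.7 and 41.1 CPM, Uqcrc1 at 231, 186, 107 and 113 CPM, and Atp5l at 196, 144, 76.6 and 77.4 CPM in wt mice, with 46.9 to 53.4, 126 to 139 and 75.7 to 124 CPM in the knockouts.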

How the data were processed

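From the RNA of each mouse's thymus cells, 100 ng entered TruSeq RNA Prep Kit v2 libraries read for 116 cycles on each end. The authors mapped reads to GRCm38.p6 with nf-core/rnaseq and deposited Salmon estimated counts per gene, summarised from transcripts, as whole numbers with no normalisation. This unit differs from raw counts in that reads shared by similar genes are divided by the estimate. Per the labels, DESeq2 1.40.0 was used in the study. The paper's model took account of sex and surrogate variables, and its calls also required an absolute log2 fold change above 1.5. The main fits here had no such covariates and no such threshold. GENCODE M21 matched 54166 of 54418 gene IDs (252 did not match) and gave gene types, symbols and exon lengths.

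Xist, Y-linked, rRNA and immunoglobulin pseudogene rows were left out of the tests, and a gene was kept if its count, at the depth of the smallest library, reached 20 in a number of mice no lower than the size of the smaller group. Pairwise edgeR 4.0.16 quasi-likelihood fits with TMM factors (R 4.3.3) gave log2 fold changes, with standard errors taken from the F statistic, and Benjamini-Hochberg adjusted p-values over all genes tested, called below 0.05. The scripts were tested on simulated data. Each mouse was a separate animal. Depth was 17669715 to 80207003 counts, and intervals from counts would cover counting error only.

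Named members were the called members, the highest and lowest log2 fold change in each complex, the 3 highest levels per kb of exons in each complex, and isoform partners. Members and gene lists were chosen with earlier results of these data known. Alternatives were DESeq2 1.42.0, RLE factors, other filters, all genotypes in one fit, replicate block, Xist covariate, 1 surrogate variable (sva 3.50.0), each mouse left out, and, after the data were seen, pairs of wt mice left out, offsets by transcript length and GC content, the Xist interaction and each mouse left out for mtDNA-encoded genes. Promoters were from RefSeq on GRCm38.p6.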

Additional observations from a re-analysis of the deposited data

Results flagged for a closer look

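Within groups of 4 mice, 5 of 118 values examined held a mouse far from the other 3, where chance marks about 1 in 20. In wt 1, Cox6b2 was at 9.91 CPM and the little-expressed Ndufa4l2 at 0.309 CPM, and in wt 3 Cox8b was at 1.4 CPM, each above the other wt mice. In Zmat3-/- mouse 3, Cox6b1 was at 80.2 CPM, and in Zmat3-/- mouse 4, Ndufaf1 was at 11.9 CPM, each below the other Zmat3-/- mice. The high and low pairs of wt mice were not marked in this way, because each extreme mouse had a near neighbour.

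The difference between knockout and wt mice differed between mice with high and low Xist for 54 of 86 members in TKO mice and for 78 of 86 in Zmat3-/- mice (edgeR interaction, adjusted p below 0.05), against 23.1% and 44.2% of all genes. The TKO values rest on TKO 1, the only TKO mouse with high Xist. The wt mice of each Xist class were the pairs already seen to differ, so these counts describe that division again. Of the members with the highest or lowest fold change of a complex, those called in TKO against wt mice had a log2 fold change at high minus low Xist of -0.776 for Atp5b, -1.45 for Cox6a1, -0.703 for Sdhc and -1.45 for Ndufaf8. In Zmat3-/- against wt mice it was -1.09 for Atp5g1, -0.693 for Atp5c1, -0.445 for Uqcrc2, -1.20 for Cox7b, -0.837 for Ndufa3, -1.11 for Cox6a1, -0.753 for Sdhc, -1.23 for Uqcr10 and -0.904 for Ndufaf3. The wt mice with high Xist were also those in which short transcripts were relatively high, and their parts in these values cannot be told apart.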

How the results depend on the processing

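Across 3 comparisons, the count of members called stayed at 0 with DESeq2, RLE size factors, no filter or filterByExpr, every gene class kept, 1 joint fit of the 3 genotypes, the fold threshold, Xist level as a covariate and each mouse left out in turn. With 1 surrogate variable it was 5 in TKO against wt mice (all lower, 14.3% of all genes called) and 34 in Zmat3-/- against wt mice (6 higher and 28 lower, 38% of all genes called). Among alternatives chosen after seeing the data, it was 5 and 61 without wt 1 and 2, 77 and 80 without wt 3 and 4, 0 and 4 with offsets by transcript length (0.639% and 3.45% of all genes called) and 0 and 2 with offsets by length and GC content (0.562% and 3.4% of all genes called). The replicate block left it at 0 in each comparison, with medians of -0.51, -0.20 and -0.13, and changed no call. Same-numbered mice correlated in their deviations from the group means at 0.07 to 0.385 between TKO and wt, 0.086 to 0.322 between Zmat3-/- and wt and -0.002 to 0.164 between the knockouts. Since these were not all over 0.1 and the labels give no shared litter or day, the numbers were not taken to pair the mice.

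Differences of summed log2 CPM moved by more than the SD pooled over both groups, though not always by more than the SD of wt mice alone, without wt 1 and 2, to 0.36, 0.21, 0.075, 0.24, 0.29 and 0.30 in TKO and 0.39, 0.32, 0.16, 0.28, 0.38 and 0.45 in Zmat3-/- against wt mice, for the ATP synthase, complex I, its assembly factors and complexes II, III and IV. Without wt 3 and 4 they were -0.59, -0.90, -0.74, -0.38, -0.72 and -0.92 in TKO and -0.56, -0.79, -0.66, -0.34, -0.63 and -0.77 in Zmat3-/- mice. With all wt mice they were -0.11, -0.34, -0.33, -0.072, -0.22 and -0.31, and -0.084, -0.23, -0.25, -0.032, -0.12 and -0.16. With total library size, complex II between the knockouts was 0.024 in place of -0.04. The ranking by level per kb kept 10 places, of which 7 were shared when the longest coding transcript was used.

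Of 588 log2 fold changes of named members under settings other than those chosen after the data were seen, 61 changed sign, none of them called. Without wt 1 and 2, some changed sign and were called. Examples were Atp5b in TKO (0.39) and Atp5c1 (0.39), Atp5g1 (0.28) and Uqcr10 (0.45) in Zmat3-/- mice. These wt mice were left out after the values had been seen, so the calls are a description. In TKO against wt mice, Atp5b was 0.00198 with DESeq2, 0.0020 with RLE, 0.025 without the filter, 0.0021 with filterByExpr, 0.0903 with Xist level and 0.15 with a surrogate variable. In the same order, Uqcrc2 was 0.0067, 0.0069, 0.033, 0.0083, 0.042 and 0.077. Ndufs1 was 0.019 without the filter, and 0.00091 and 0.0084 with Xist level and a surrogate variable, where Cox7b was 0.18 and 0.25. Ndufaf6 was -0.12 with the block. In Zmat3-/- against wt mice, Ndufaf6 was -0.0086 without the filter, -0.0052 with filterByExpr and -0.0075 in one fit, and Atp5c1 was 0.027 with the block, 0.0197 with Xist level and 0.095 with a surrogate variable. Between the knockouts, Cox6a1 was 0.00098 without the filter, 0.0092 with Xist level and 0.022 with a surrogate variable. Leaving out single mice gave ranges across 0 in TKO against wt mice for Atp5b (-0.13 to 0.13), Ndufs1 (-0.056 to 0.021), Uqcrc2 (-0.082 to 0.076), Cox7b (-0.25 to 0.17), Ndufaf6 (-0.19 to 0.36) and Sdha (-0.00026 to 0.12). In Zmat3-/- against wt mice they were Atp5c1 (-0.14 to 0.14), Sdhc (-0.33 to 0.021), Ndufaf6 (-0.19 to 0.35), Uqcrc2 (-0.024 to 0.13) and Sdha (-0.027 to 0.086), and between the knockouts Uqcrc1 (-0.049 to 0.0012), Cox6a1 (-0.061 to 0.044) and Ndufaf3 (-0.016 to 0.052). The cause was not tested. A surrogate variable also brought 7 named fold changes past the threshold. Depth limits the isoforms under 2 CPM.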
